A study of Mus musculus with 8 samples.

Results

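The genes described here are 9 enzymes and subunits of the methionine cycle, of transsulfuration and of the glycine-producing reactions next to them: Cth, Cbs, Mat2a, Mat2b, Ahcy, Mtr, Mtrr, Shmt1 and Gcat. They were chosen by name, with earlier results of these data known. Their mouse gene symbols were found among the 37224 genes of the deposited count table, where all 9 had 1 row each. Of the 9, 7 passed the filter on low counts and were tested, and Ahcy and Cbs did not. The study sequenced RNA from individual mouse eggs held at the second meiotic metaphase (MII oocytes), collected after superovulation. There were 4 oocytes from knockout females carrying the conditional allele combination that the labels call Setd1bGdf9cKO and 4 from control females, whose alleles are not described further. Setd1b encodes an enzyme that methylates a lysine of histone H3, and Gdf9, the gene in the name of the allele, is active in the oocyte while it grows; the driver and the deleted part of Setd1b are not given in the sources used here. Strain, age and the number of females are not given either, so each p-value rests on the variation among 8 oocytes, part of which may be technical.

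The methionine cycle makes and recycles S-adenosylmethionine, the methyl donor of DNA, RNA and histone methyltransferases. Methionine adenosyltransferase makes it from methionine, its use leaves S-adenosylhomocysteine, the hydrolase Ahcy splits that to homocysteine, and methionine synthase returns homocysteine to methionine with a methyl group from folate. Transsulfuration diverts homocysteine to cysteine, a precursor of glutathione: Cbs joins it to serine, and Cth cleaves the resulting cystathionine. Oocytes keep a store of glutathione, which is used in the egg's cytoplasm at fertilization.

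Values are CPM, the counts of a gene as a rate on its library total, corrected for composition, and a call is an adjusted p under 0.05. Each library is 1 oocyte, and CPM gives a share of its reads, not an amount of RNA. In knockout oocytes Cth fell about 14-fold, Mat2b fell by a smaller amount and Gcat rose more than 20-fold, and for each of these genes the highest library of one group lay below the lowest of the other. Reads counted as Gcat can include reads of Galr3, as described below. The mean of Cth was 14.4 times lower and the mean of Gcat 23.3 times higher in knockout oocytes, and the knockout mean of Mat2b was 0.669 times its control mean. Mat2a, Mtr, Mtrr and Shmt1 did not pass the test. Thus 3 of the 7 tested genes (42.9%) were called, against 25.8% of all 11066 tested genes, and 3 of the 7 had groups that did not overlap, against 31.3% of all tested genes. By direction, 1 was higher (background 13.6%) and 2 were lower (background 12.2%). The genes were chosen with earlier results of these data known, so these shares are a description only. The median log2 fold change of the 7 was -0.16, and that of all tested genes was 0.10. The authors' deposited table, which holds 7.28% of the genes of the count table, listed 3 of the 9 genes, and these were Cth, Mat2b and Gcat. That table stopped at a DESeq2 adjusted p of 0.01, a stricter limit than the 0.05 used here. Of the 37224 genes, 18743 had no count in any library, so 7.28% is not a background for genes with counts.

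**Figure D1:**
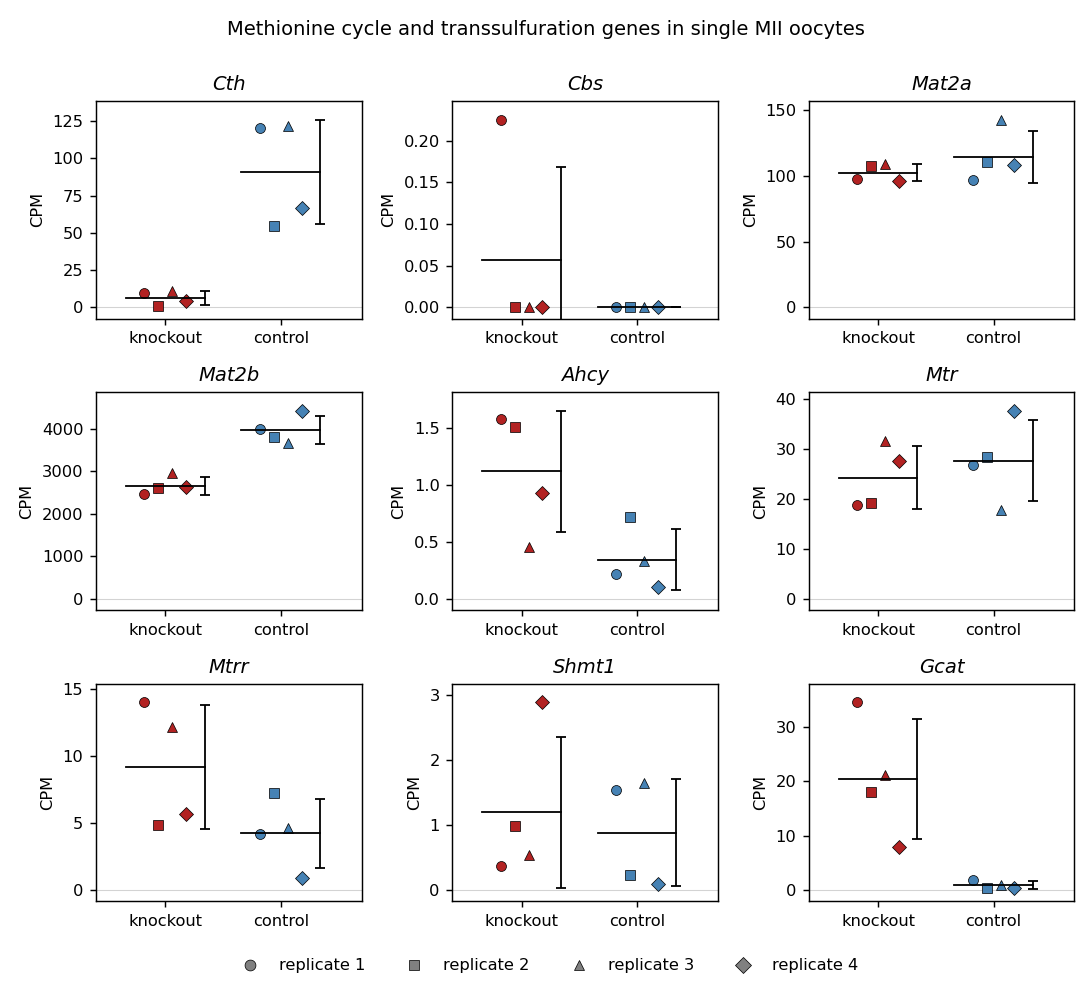
CPM (read counts per library total, scaled by composition) of the 9 genes in each oocyte, knockout left and control right, with a symbol for each replicate; lines are means and bars are SD over 4 oocytes. The groups do not overlap for Cth, Mat2b and Gcat, and Cbs had counts in 1 library, at 0.225 CPM.

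The libraries held 9488899 to 11313502 assigned counts in knockout and 11029602 to 13519404 in control oocytes. Setd1b itself (ENSMUSG00000038384) had 4.00 ± 0.93 CPM in knockout and 10.9 ± 1.46 CPM in control oocytes (SD, n = 4 each), a log2 fold change of -1.44 ± 0.41 (SE) with an edgeR adjusted p of 0.0221; the adjusted p was above 0.05 without knockout replicate 3 (0.0519, -1.33) or control replicate 2 (0.0540, -1.36), with a centred length trend removed (0.0731, -1.05) and when libraries were scaled by totals alone (0.0895, -1.04). All 12 oocyte markers examined, among them Zp3, Gdf9 and Ddx4, stood above 10 CPM in every library. Of these 12, 50% were called in the edgeR test (background 25.8%). The 4 called higher (background 13.6%) were Zp1, Zp2, Zp3 and Nlrp5, at log2 fold changes from 1.54 to 3.02. The 2 called lower (background 12.2%) were Ooep at -0.86 and Oosp1 at -1.43. The lowest knockout value of Zp1, 119 CPM, lay close to its highest control value, 118 CPM. The 15 markers of cumulus and granulosa cells, the follicle cells around the oocyte, summed to 36.5 to 79.6 CPM in knockout libraries. In control libraries they summed to 80.7 to 110 CPM, and the 2 ranges did not overlap. Most of that sum came from Cyp19a1, at a mean of 49.3 CPM in knockout and 88.8 CPM in control oocytes. Cyp19a1 was called lower in knockout oocytes (log2 fold change -0.85, edgeR adjusted p = 0.0367), although its groups overlapped. Of the 15 markers, 7, including Amh, Inha, Foxl2 and Lhcgr, were at 0 in every library. The 13 markers of blood, stroma and epithelium that had a row summed to 26.8 to 51.4 CPM in knockout and 50.9 to 77.8 CPM in control libraries, ranges that overlapped. Most of it came from Pecam1, at a mean of 33.8 CPM in knockout and 60.0 CPM in control oocytes. Pecam1 was also called lower in knockout oocytes (log2 fold change -0.83, edgeR adjusted p = 0.0359), and its groups overlapped. Of the 13 markers, 7, including Cdh5, Ptprc, Col1a2 and Krt8, were at 0 in every library. The part of such cells in the results was not tested.

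Promoter windows of 300 bases around gene starts from RefSeq (GRCm38.p6) matched 8 of the 9 genes. They are shown for Gcat and Mat2b, the called genes that had an entry, because the direction of change differed between them. Both windows held more CpG dinucleotides than the median window, which had 7. So did the windows of the genes not called, from 13 CpG in Ahcy to 39 in Mtrr. Capitals mark matches, on either strand, to the E-box CACGTG, the GC box GGGCGG, the CCAAT box and the TATAAA box. Gcat lies on the plus strand at chr15:79030624-79030923, and Mat2b on the minus strand at chr11:40692633-40692932, at a start inside the outer limits of the counted gene.
Gcat: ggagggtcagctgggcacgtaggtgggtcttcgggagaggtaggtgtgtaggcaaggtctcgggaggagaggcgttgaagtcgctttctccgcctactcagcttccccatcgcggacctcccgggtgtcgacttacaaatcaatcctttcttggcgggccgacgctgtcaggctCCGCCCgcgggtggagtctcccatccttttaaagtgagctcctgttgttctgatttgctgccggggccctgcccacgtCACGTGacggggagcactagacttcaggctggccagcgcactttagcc
Mat2b: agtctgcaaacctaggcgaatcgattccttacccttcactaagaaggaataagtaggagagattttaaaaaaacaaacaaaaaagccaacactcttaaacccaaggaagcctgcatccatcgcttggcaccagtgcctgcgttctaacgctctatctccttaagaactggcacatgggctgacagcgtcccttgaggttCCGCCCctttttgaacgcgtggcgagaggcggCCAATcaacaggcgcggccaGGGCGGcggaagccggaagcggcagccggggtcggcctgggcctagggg
The Gcat window held 21 CpG, and 24.8% of all 32851 promoter windows held as many or more. It had 1 E-box and 1 GC box and no CCAAT or TATAAA box. The Mat2b window held 19 CpG, a number reached by 28.1% of windows, with 2 GC boxes, 1 CCAAT box and neither an E-box nor a TATAAA box. Among all windows, 7.15% held CACGTG, 35.7% GGGCGG, 37.4% CCAAT and 13.6% TATAAA. These matches describe the letters only.

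Transsulfuration was represented by Cth alone. Cth (ENSMUSG00000028179, mm10 chromosome 3, 157894248 to 157925077, minus strand), which releases cysteine from cystathionine, had 9.32, 0.906, 10.7 and 4.29 CPM in knockout replicates 1 to 4, against 121, 54.8, 121 and 66.8 CPM in control replicates 1 to 4. Every knockout oocyte lay below every control oocyte, and the lowest control value was 5.12 times the highest knockout value. The means were 6.31 ± 4.53 CPM in knockout and 90.9 ± 35.1 CPM in control oocytes (SD, n = 4 each), from 301 and 3916 counts. Among themselves the knockout oocytes spread more widely, with the highest 11.8 times the lowest, against 2.21 times among control oocytes. The log2 fold change was -3.85 ± 0.59 (SE; edgeR quasi-likelihood test, Benjamini-Hochberg adjusted p = 0.000983), and the adjusted p ranged from 1.368e-12 to 0.00578 over 19 alternative settings. With quality weights in limma voom the log2 fold change was -4.50, with an uncentred length trend removed -4.46, and it ran from -4.24 to -3.48 when 1 library was left out. The authors' deposited table gave -3.44 shrunken and -3.89 unshrunken, with an adjusted p of 5.09e-11. None of the stretches of 75 bases in Cth transcripts, the read length, occurred in a transcript of another gene in GENCODE release M21.

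Cbs, the enzyme one step before Cth, was at the detection limit in both groups. Cbs (ENSMUSG00000024039, chromosome 17, 31612623 to 31637199) had 3 counts in knockout replicate 1 and 0 counts in the other 3 knockout and all 4 control libraries. A count of 0 allows up to 3 counts per library, or 0.222 to 0.316 CPM on the library totals, so no fold change is given.

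S-adenosylmethionine synthesis accounted for the most abundant transcripts of the group. Mat2b, the regulatory subunit of methionine adenosyltransferase II (ENSMUSG00000042032, chromosome 11, 40679314 to 40695203), had 2471, 2601, 2955 and 2624 CPM in knockout replicates 1 to 4, against 4012, 3810, 3678 and 4426 CPM in control replicates 1 to 4. The groups did not overlap, and the lowest control value was 1.24 times the highest knockout value. The means of Mat2b were 2663 ± 206 CPM in knockout and 3982 ± 327 CPM in control oocytes (SD, n = 4 each), a log2 fold change of -0.58 ± 0.14 (SE; edgeR adjusted p = 0.0110). This fall depended on scaling: under scaling by totals alone its log2 fold change was -0.18 and its edgeR adjusted p 0.229. A change of scaling shifts all genes by nearly the same amount. The distance of Mat2b from the median gene, -0.68 under both scalings, was therefore nearly fixed and does not test the fall. That median was 0.10 with composition scaling (TMM, trimmed mean of M-values), 0.49 with totals alone and -0.30 after removal of a gene length trend per library. The last of these lowered the overall level, and a version centred on the median of each library, which puts the median at 0.12, was added after its result had been seen. The authors' deposited table gave Mat2b a shrunken log2 fold change of -0.62 and an adjusted p of 6.98e-05.

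Mat2a, the catalytic subunit that Mat2b regulates (ENSMUSG00000053907, chromosome 6, 72432799 to 72439558), did not pass the test. It had 97.9, 108, 109 and 96.1 CPM in knockout replicates 1 to 4, against 96.9, 111, 143 and 108 CPM in control replicates 1 to 4. The ranges overlapped, and control replicate 3 was the highest library. The log2 fold change of Mat2a was -0.16 ± 0.18 (SE; edgeR adjusted p = 0.541), but the value depended on scaling: it was 0.22 with totals alone, and -0.72 with an uncentred length trend removed, where Mat2a was called (adjusted p = 0.0108). With the centred trend it was -0.31 (adjusted p = 0.225). In GENCODE M21 the first exon block of Mat2a shares all its 213 bases with Particl, a gene on the opposite strand, and unstranded reads of the 2 genes cannot be told apart there. Mat1a, the other catalytic subunit and the form typical of liver, averaged 1.17 ± 1.5 CPM in knockout and 3.09 ± 2.09 CPM in control oocytes and did not pass (log2 fold change -1.40 ± 0.94, edgeR adjusted p = 0.304). Without knockout replicate 3 the log2 fold change of Mat1a was -2.84.

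Of the genes for remethylation of homocysteine, neither Mtr nor Mtrr passed. Mtr, the cobalamin-dependent methionine synthase (ENSMUSG00000021311, chromosome 13, 12186542 to 12258113), had 18.9, 19.2, 31.6 and 27.6 CPM in knockout replicates 1 to 4, against 26.9, 28.5, 17.8 and 37.7 CPM in control replicates 1 to 4. The control range enclosed the knockout range. For Mtr the log2 fold change was -0.19 ± 0.30 (SE; edgeR adjusted p = 0.683) and 0.21 with totals alone. Mtrr, the reductase that reactivates Mtr (ENSMUSG00000034617, chromosome 13, 68560780 to 68582121), had 13.98, 4.83, 12.1 and 5.69 CPM in knockout replicates 1 to 4, against 4.19, 7.20, 4.62 and 0.901 CPM in control replicates 1 to 4. Knockout replicates 1 and 3 lay above every control oocyte and knockout replicates 2 and 4 within the control range. In the knockout, replicates 1 and 3 were also the 2 highest libraries for Cth and for Gcat, which changed in opposite directions. A link between these genes was not tested. The log2 fold change of Mtrr was 1.11 ± 0.62 (SE; edgeR adjusted p = 0.214). Bhmt, which remethylates homocysteine with betaine, had 0 counts in all 8 libraries.

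Ahcy, which clears S-adenosylhomocysteine, had few counts and its level is uncertain. Ahcy (ENSMUSG00000027597, chromosome 2, 155059310 to 155074497) had 21, 20, 5 and 10 counts in knockout replicates 1 to 4, against 2, 9, 4 and 1 counts in control replicates 1 to 4. Knockout replicates 1, 2 and 4 lay above every control oocyte, and replicate 3 lay among them. With no filter the log2 fold change was 1.65 ± 1.25 (SE; edgeR adjusted p = 0.384). Of the stretches of 75 bases in Ahcy transcripts, 65.9% also occurred in transcripts of other genes, 62.5% in Gm4737 alone, so such reads of the copies cannot be told apart. Only reads with a mapping quality of at least 1 were counted, so reads that match several copies may have been left out. Gm4737, looked up after this overlap was seen, had 32, 15, 14 and 8 counts in knockout replicates 1 to 4, against 3, 7, 6 and 1 counts in control replicates 1 to 4. For Gm4737, each knockout count was above each control count, and without a filter its log2 fold change was 1.85 ± 1.18 (SE; edgeR adjusted p = 0.299).

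Relatives of Ahcy that carry its homology domain had higher CPM than the uncertain value of Ahcy. Ahcyl1, called only with the uncentred length trend removed (-0.70, adjusted p = 0.0386), averaged 49.0 ± 11.0 CPM in knockout and 69.2 ± 11.3 CPM in control oocytes (SD, n = 4 each; log2 fold change -0.50 ± 0.22, edgeR adjusted p = 0.124). Ahcyl2 averaged 7.15 ± 1.29 CPM in knockout and 2.53 ± 1.42 CPM in control oocytes, and its groups did not overlap, but it did not pass (log2 fold change 1.49 ± 0.55, edgeR adjusted p = 0.0658; 0.0208 to 0.159 over its alternatives, and 0.0331 without control replicate 3).

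**Figure D2:**
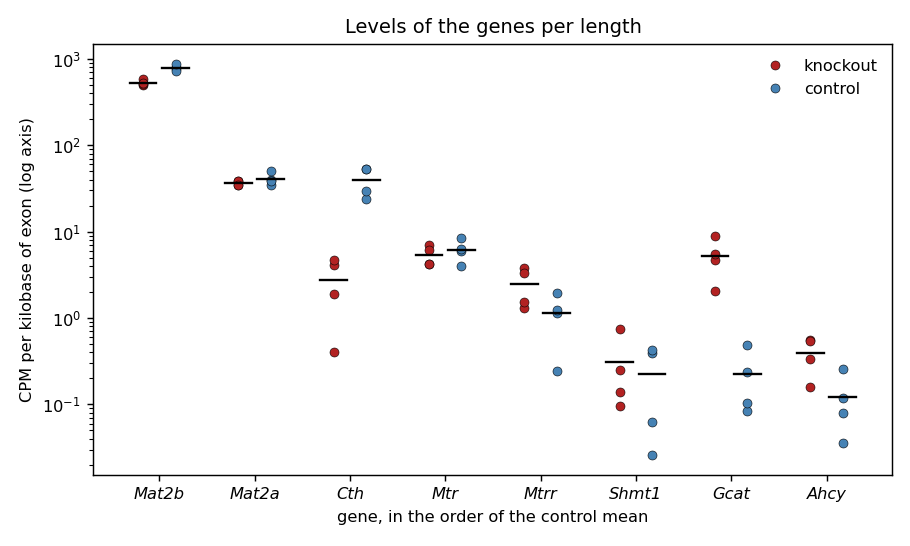
CPM per kilobase of exon on a log axis for 8 of the 9 genes in the order of their control mean, knockout left and control right in each pair; points are oocytes and lines are means over 4. Cbs is left out because its control libraries are at 0; Mat2b stands highest in both groups, at a mean of 532 in knockout and 796 in control oocytes.

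Per kilobase of exon, Mat2b was the highest member in both groups, at 532 ± 41.3 CPM per kilobase in knockout and 796 ± 65.3 in control oocytes (SD, n = 4 each). Mat2a came next, at 36.6 ± 2.32 in knockout and 40.9 ± 7.05 CPM per kilobase in control oocytes. In control oocytes Cth stood beside Mat2a at 40.2 ± 15.5 CPM per kilobase, which did not differ beyond the spread, and above Mtr at 6.18 ± 1.81. In knockout oocytes Cth, at 2.79 ± 2.00 CPM per kilobase, was within the spread of Mtrr at 2.48 ± 1.24, and also overlapped Mtr at 5.42 ± 1.41 and Gcat at 5.29 ± 2.86. Gcat was seventh in control oocytes at 0.227 ± 0.186 CPM per kilobase, level with Shmt1 at 0.228 ± 0.213. Ahcy came eighth in control oocytes at 0.122 ± 0.0957 CPM per kilobase. That level is uncertain, because reads shared with its copies may have been counted for either gene or left out. The orders of the remaining neighbours, Mtr and Gcat in knockout oocytes and Shmt1, Gcat and Ahcy in control oocytes, lay within their spread.

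Of the glycine-producing enzymes, Gcat rose and Shmt1 did not pass. Gcat (ENSMUSG00000006378, chromosome 15, 79030874 to 79043558, plus strand) encodes a mitochondrial enzyme that splits the product of threonine dehydrogenase into glycine and acetyl-CoA. It had 34.5, 18.0, 21.2 and 7.83 CPM in knockout replicates 1 to 4, against 1.87, 0.320, 0.908 and 0.401 CPM in control replicates 1 to 4. Each knockout oocyte lay above each control oocyte, with the lowest knockout value 4.18 times the highest control value. The means of Gcat were 20.4 ± 11.0 CPM in knockout and 0.876 ± 0.715 CPM in control oocytes (SD, n = 4 each). The log2 fold change was 4.55 ± 0.67 (SE; edgeR adjusted p = 0.000720), and its size is uncertain because the control libraries held only 17, 4, 11 and 4 counts; it was 5.19 without control replicate 1. The authors' deposited table gave Gcat 3.89 shrunken and 4.52 unshrunken, with an adjusted p of 4.95e-12. Of the 3851 exonic bases counted as Gcat, 1245 bases in 2 blocks belong in GENCODE M21 to Galr3, a galanin receptor gene that has no row of its own. Both blocks lie past 79038353, where Gcat ends in GENCODE M21. The counts do not tell reads of Gcat and Galr3 apart, and the values of Gcat per kilobase include the length of these blocks. The part of Galr3 in the rise was not tested.

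Threonine dehydrogenase (Tdh), the partner that supplies Gcat, had 23, 8, 9 and 16 counts in knockout replicates 1 to 4, against 0, 15, 2 and 0 counts in control replicates 1 to 4. It stayed below the filter, and the groups overlapped through control replicate 2. Shmt1, the cytosolic serine hydroxymethyltransferase (ENSMUSG00000020534, chromosome 11, 60788104 to 60811718), had 5, 13, 6 and 31 counts in knockout replicates 1 to 4, against 14, 3, 20 and 1 counts in control replicates 1 to 4. The log2 fold change of Shmt1 was 0.43 ± 1.02 (SE; edgeR adjusted p = 0.792), and -0.48 without knockout replicate 4. In the counted gene models, 184 bases of Shmt1 also belong to Smcr8, a gene on the opposite strand with 547 counts over all libraries. Unstranded reads of Shmt1 and Smcr8 cannot be told apart there. Its mitochondrial relative Shmt2 was far more abundant, at 44.2 ± 9.24 CPM in knockout and 76.5 ± 12.3 CPM in control oocytes, with groups that did not overlap (log2 fold change -0.79 ± 0.22, edgeR adjusted p = 0.0211). The call of Shmt2 was lost under scaling by totals alone (-0.40, adjusted p = 0.266) and without knockout replicates 2 or 3 or control replicate 3 (-0.76, -0.68 and -0.69, adjusted p from 0.0562 to 0.0655).

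**Figure D3:**
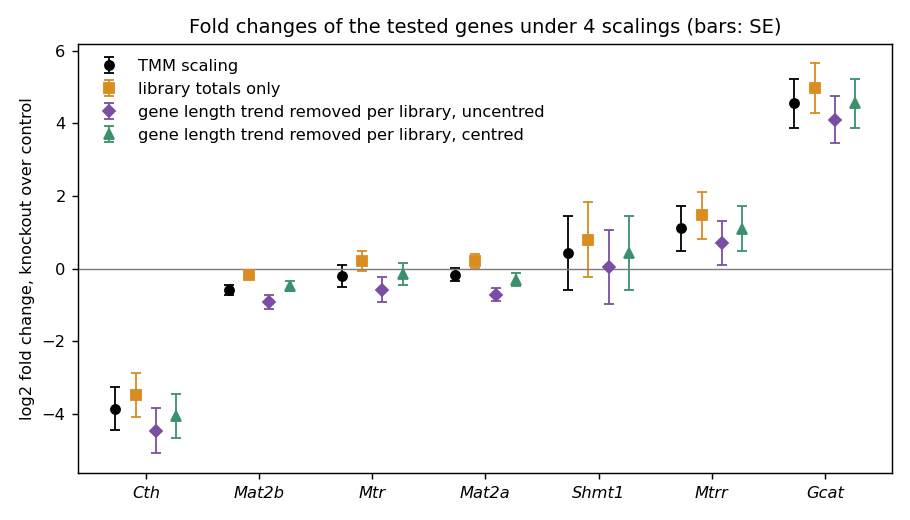
Log2 fold changes of knockout over control for the 7 tested genes under 4 scalings, with bars of 1 SE. Cth lies below -3 and Gcat above 4 under each scaling shown, Mat2b is at -0.18 with totals alone, and Mtr and Mat2a lie on either side of 0 depending on the scaling.

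Likeness of profile was measured as the root mean square difference, over the 8 libraries, of log2(CPM + 1) centred on each gene's mean, among 9965 other tested genes with a plain symbol. The 3 genes nearest to Cth were Zfp423, Runx2 and AA465934, at 0.878, 0.888 and 0.888, where the median gene was at 2.23. They were lower in knockout oocytes, at 2.95 against 24.9 CPM for Zfp423, 0.703 against 16.5 CPM for Runx2 and 0.279 against 19.3 CPM for AA465934 in knockout and control means. The 3 nearest to Gcat were Slc9a3r1, Faap24 and Psmb7, at 0.344, 0.368 and 0.376, where the median gene was at 1.82. They were higher in knockout oocytes, at 17.1 against 1.22 CPM for Slc9a3r1, 10.6 against 0.630 CPM for Faap24 and 28.8 against 0.820 CPM for Psmb7. In the order named, the 6 had log2 fold changes of -3.07, -4.50, -6.09, 3.81, 4.07 and 5.14, a description only, because choosing them by likeness over the same libraries fixed their direction; Zfp423 was at -3.81 without knockout replicate 3, Runx2 at -5.78 without knockout replicate 1 and Faap24 at 4.94 without control replicate 1.

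The other genes of these pathways were described from 5 lists, written with earlier results of these data known. They held 91 genes, of which 57 were tested. Of these, 9 rose and 8 fell (29.8%, background 25.8%), but 15 rose and 4 fell with totals alone, and 4 rose and 13 fell with the uncentred length trend removed. All 11066 tested genes shifted too, with 2382 higher and 504 lower under totals alone. With the uncentred length trend removed, 925 of them were higher and 2597 lower. The counts of each list under these 2 settings are to be read against those numbers. Among 15 tested genes of the methionine cycle, methionine salvage and polyamine synthesis, Mtap rose and Amd1 fell, with a median log2 fold change of -0.10 (13.3% called, background 25.8%). With the uncentred length trend removed 1 rose and 4 fell, 2 rose and 1 fell without control replicate 3, and 1 gene was called without knockout replicate 2, 3 or 4 or control replicate 2 or 4. Amd1, which decarboxylates S-adenosylmethionine for polyamine synthesis, averaged 26.7 ± 3.45 CPM in knockout and 63.5 ± 7.12 CPM in control oocytes (SD, n = 4 each; log2 fold change -1.25 ± 0.21, edgeR adjusted p = 0.00163). Mtap, which starts the salvage of methionine from the by-product of that pathway, averaged 87.1 ± 15.8 CPM in knockout and 55.2 ± 4.00 CPM in control oocytes (0.66 ± 0.19). The edgeR adjusted p of Mtap was 0.0274, and from 0.0512 to 0.0880 without knockout replicates 2, 3 or 4 or control replicates 2, 3 or 4, at log2 fold changes from 0.55 to 0.67; with the uncentred length trend removed it was 0.606 (0.17).

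Among 14 tested genes of folate one-carbon metabolism, Shmt2 and Mthfs fell and 0 rose, with a median of 0.24 (14.3% called, background 25.8%). With totals alone 2 rose and 0 fell (all tested genes: 2382 and 504). With the uncentred length trend removed 0 rose and 4 fell (all tested genes: 925 and 2597). The edgeR calls numbered 0 without knockout replicate 2 and 1 without knockout replicate 3. Mthfs, which returns formyl folate to the active pool, averaged 36.8 ± 7.63 CPM in knockout and 66.4 ± 24.2 CPM in control oocytes (SD, n = 4 each; log2 fold change -0.85 ± 0.28). Its edgeR adjusted p of 0.0426 was above the threshold without knockout replicates 1, 2 or 4 or control replicates 1 or 4 (0.0828 to 0.119, log2 fold changes from -0.83 to -0.62) and with totals alone (0.215).

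Among 8 tested genes that handle cobalamin, the cofactor of Mtr, 3 rose and 0 fell (37.5%, background 25.8%), with a median of 0.58; 1 rose and 0 fell without knockout replicate 2, without knockout replicate 3 or with the uncentred length trend removed. Lmbrd1, part of the lysosomal export of cobalamin, had 66.3, 62.2, 107 and 71.0 CPM in knockout replicates 1 to 4, against 25.2, 19.7, 14.03 and 20.5 CPM in control replicates 1 to 4. Its groups did not overlap (log2 fold change 1.95 ± 0.26, edgeR adjusted p = 0.000458). Its partner Abcd4 averaged 9.59 ± 4.79 CPM in knockout and 2.45 ± 0.63 CPM in control oocytes (1.96 ± 0.52, edgeR adjusted p = 0.0175), with adjusted p-values of 0.0534 and 0.0711 without knockout replicates 2 and 3 (1.92 and 1.61) and of 0.0604 with the uncentred length trend removed. Mmadhc, which directs cobalamin to its enzymes, averaged 147 ± 24.8 CPM in knockout and 91.8 ± 24.3 CPM in control oocytes (0.68 ± 0.22, edgeR adjusted p = 0.0408). Its groups overlapped, and the call was lost without knockout replicates 2, 3 or 4 or control replicates 1, 2 or 3 (adjusted p from 0.0678 to 0.109, log2 fold changes from 0.53 to 0.70) and with a length trend removed, uncentred (0.02, adjusted p = 0.957) or centred (0.46, adjusted p = 0.121). It was also lost with median-of-ratios size factors (adjusted p = 0.0564) and with no filter (adjusted p = 0.0506), so that it did not pass in 12 of 19 alternatives.

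**Figure D4:**
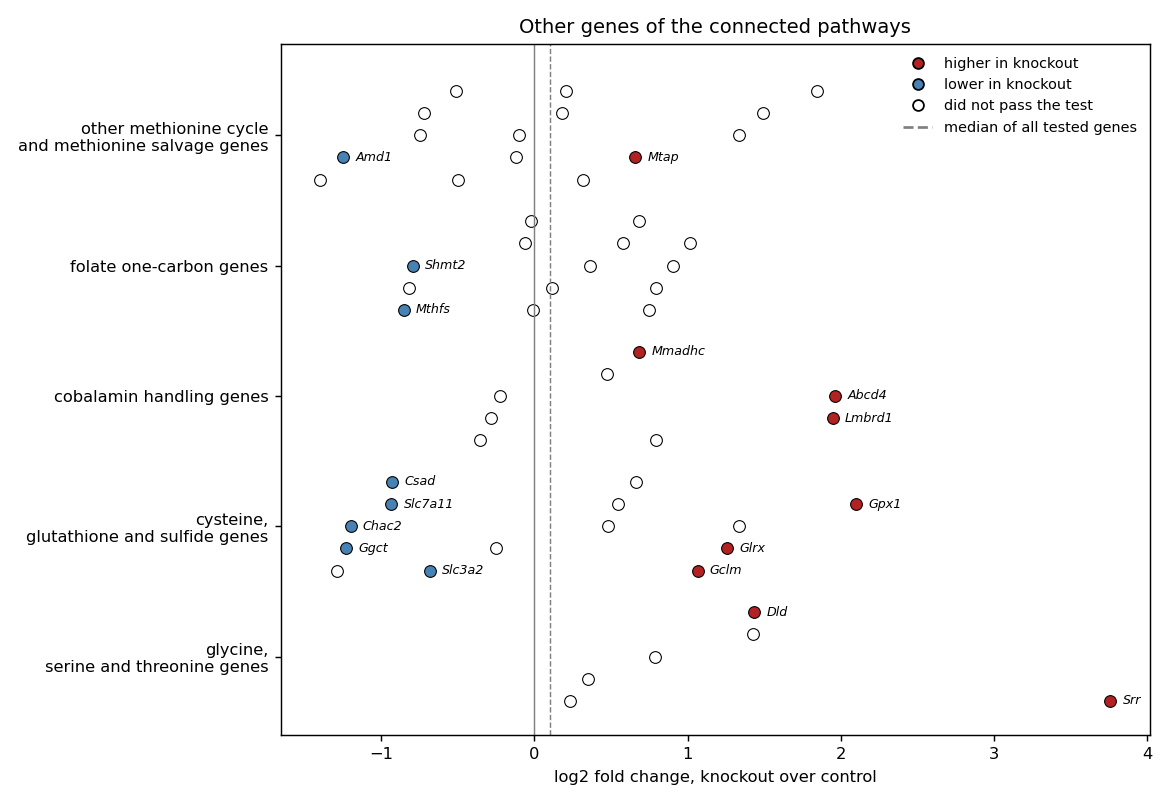
Log2 fold changes of knockout over control for the 57 tested genes of 5 connected pathways, 1 row of points per list with vertical offsets for legibility only; filled points passed the test and carry their symbol. The dashed line is the median of all tested genes, 0.10, and called genes lie on both sides of it in the lists of the methionine cycle and of cysteine and glutathione.

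In cysteine, glutathione and sulfide metabolism, 8 of 14 tested genes passed (57.1%, background 25.8%), 3 of them higher and 5 lower, with a median of 0.11. This split followed the scaling, with 6 higher and 3 lower under totals alone and 1 higher and 5 lower with the uncentred length trend removed. The split of all tested genes moved the same way, to 2382 higher and 504 lower and to 925 higher and 2597 lower. The count was 5 without knockout replicate 1, knockout replicate 2, control replicate 2 or control replicate 3. Ggct and Chac2, which take part in the breakdown of glutathione, both fell. Ggct averaged 182 ± 29.3 CPM in knockout and 427 ± 34.3 CPM in control oocytes (SD, n = 4 each; log2 fold change -1.23 ± 0.16, edgeR adjusted p = 0.000420), and Chac2 averaged 19.6 ± 5.95 CPM in knockout and 45.1 ± 7.59 CPM in control oocytes (-1.20 ± 0.27). Slc7a11, the transporter that imports cystine, had 250, 210, 280 and 280 CPM in knockout replicates 1 to 4, against 612, 540, 369 and 427 CPM in control replicates 1 to 4. Its groups did not overlap (-0.93 ± 0.19, edgeR adjusted p = 0.00460), and the adjusted p was 0.0560 with the centred length trend removed (-0.55).

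Glrx, a glutathione-dependent oxidoreductase, rose, at 480 ± 154 CPM in knockout and 201 ± 76.1 CPM in control oocytes (SD, n = 4 each; log2 fold change 1.26 ± 0.29, edgeR adjusted p = 0.00886); with the uncentred length trend removed its value was 0.58 (adjusted p = 0.129). The other called genes of this list, named after their values were seen, were the glutathione peroxidase gene Gpx1 (2.10, and 2.70 without control replicate 1), the modifier subunit of glutamate-cysteine ligase Gclm (1.07), the partner chain of Slc7a11, Slc3a2 (-0.68), and the taurine synthesis gene Csad (-0.93). Gclm lost its call without knockout replicates 1, 2 or 4 or control replicates 2, 3 or 4 (edgeR adjusted p from 0.0602 to 0.135, log2 fold changes from 0.71 to 1.14). Slc3a2 lost its call without knockout replicates 1, 2 or 3 or control replicates 1, 2 or 3 (0.0563 to 0.121, -0.72 to -0.53), and Csad when any 1 knockout replicate was left out and without control replicates 2 or 3 (0.0520 to 0.137, -1.09 to -0.66). Over all 19 alternative settings the adjusted p reached 0.344 for Slc3a2 and 0.249 for Csad. Their log2 fold changes ran from -1.22 to -0.29 and from -1.56 to -0.56. Gclc, the catalytic subunit of the same ligase, did not pass (0.66).

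Among 6 tested genes of glycine, serine and threonine metabolism, Dld and Srr rose and 0 fell, with a median of 1.11 (33.3% called, background 25.8%); 1 rose and 0 fell without knockout replicate 2, without knockout replicate 4 or with the uncentred length trend removed. Dld, a subunit shared by the glycine cleavage system and the pyruvate dehydrogenase complex, had 353, 366, 361 and 373 CPM in knockout replicates 1 to 4, against 104, 104, 109 and 221 CPM in control replicates 1 to 4. Its groups did not overlap (log2 fold change 1.43 ± 0.25, edgeR adjusted p = 0.00176), and its adjusted p was 0.0514 with the uncentred length trend removed (0.77). Srr, which converts serine to its mirror form, had 147 counts over the knockout libraries and 9 over the control libraries (3.76 ± 1.06, edgeR adjusted p = 0.0220). For Srr the log2 fold change was 4.60 without control replicate 1, 3.13 without knockout replicate 4 (adjusted p = 0.0895), 3.76 without knockout replicate 2 (adjusted p = 0.0609) and 3.63 without control replicate 3 (adjusted p = 0.0590).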

How the data were processed

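RNA of 8 single MII oocytes, 4 knockout and 4 control by their genotype label, was amplified with the SMARTer Ultra Low kit and sequenced as 75-base single reads, per the labels' protocols; the kit marks no strand and carries no molecular identifiers, so counting limits cover counting error only. Per the submitters' processing notes, the authors' tools were featureCounts 1.4.4, GSNAP and DESeq2 1.3.79, and the build was mm10. The deposited counts used Ensembl release 69 genes and reads with a mapping quality of at least 1, per the file headers. The authors' deposited comparison table (2709 genes) gives log2 fold changes, p-values, scores such as the standard error, a normalized signal and RPKM. Its normalized signal matched the counts divided by 1 factor per library to within 0.0832, and its RPKM to within 0.05; only its fold changes and adjusted p-values were printed.

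The 8 count columns held whole numbers of 0 or more and entered the quasi-likelihood F test of edgeR 4.0.16 (R 4.3.3) with TMM factors, the filterByExpr filter and genotype as sole term. Benjamini-Hochberg adjustment covered 11066 genes, with a threshold of 0.05. CPM uses the totals of tested genes multiplied by TMM factors, and SE follows from the log2 fold change and F. Scripts were tested on simulated data. The 9 genes, the lists and the alternatives were chosen with earlier results of these data known, so no p is given for a list. Genes named are the 9, Setd1b, up to 4 called genes per list by p, their relatives and partners, and the 3 profiles nearest to Cth and Gcat; Gm4737, Gpx1, Gclm, Slc3a2, Csad and Gclc are named outside this rule, and 1 partner gene of the rule is not reported here. Symbols came from a gene name table. Of the list genes, Hbb-b1 matched no row. Alternatives used limma 3.58.1 and DESeq2 1.42.0. The planned removal of a gene length trend per library (loess, span 0.5) was run uncentred; its centred version was added after that result was seen, because the uncentred trend lowered the overall level, and both are given.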

Additional observations from a re-analysis of the deposited data

Results flagged for a closer look

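In 4 of 73 groups of 4 oocytes examined over the genes named, 1 oocyte stood apart from the other 3 (Dixon's test of the gap to its nearest neighbour). Chance gives this in about 1 in 20 groups, close to the number seen. Dld was at 221 CPM in control replicate 4 and at 104 to 109 CPM in the other control oocytes. Mat1a was at 3.42 CPM in knockout replicate 3 and at 0.301 to 0.604 CPM in the other knockout oocytes. Cbs, at 0.225 CPM in knockout replicate 1, and Tdh, at 1.2 CPM in control replicate 2, rest on few counts.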

How the results depend on the processing

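Cth kept its direction and its call under all 19 alternatives and Gcat under the 18 that could test it, since Gcat falls under a filter of 10 CPM in 4 libraries. Mat2b kept its direction under all 19 and lost its call with library totals only (adjusted p = 0.229), with the replicate number as a block (adjusted p = 0.0674) and at a threshold of 0.01. Mat2a and Mtr changed sign with library totals only (log2 fold changes of 0.22 and 0.21), and Shmt1 without knockout replicate 4 (-0.48 to 0.93 with 1 library left out). Mat2a was called only with the uncentred length trend removed (-0.72), which made 4 members called. The calls among all genes numbered 2850, and 1391 at an adjusted p under 0.01 and 1849 to 2841 with 1 library left out, the fewest without knockout replicate 2; they split into 1503 higher and 1347 lower, but 2382 and 504 with library totals only, and 925 and 2597 with the uncentred length trend removed. Centring, chosen after that result was seen, gave 1517 higher and 1293 lower. The called members numbered 3 in each fit with 1 library left out. The called genes of the 5 wider lists numbered 17, but 7 at an adjusted p under 0.01, 8 with the replicate block, and 8 to 16 with 1 library left out, with 8 without knockout replicate 2 and 11 without knockout replicate 3. Same-numbered libraries did not deviate together (correlations from -0.107 to -0.0178, and 0 of 8 libraries correlated best with its own number), so the numbers are not taken as pairs; with the block, 1951 genes were called. The block also took the calls of Setd1b, Shmt2, Mtap, Mthfs, Abcd4, Mmadhc, Srr, Gclm, Csad and Slc3a2 above the threshold (adjusted p from 0.0634 to 0.119). Cbs and Ahcy were below the filter on low counts, and Shmt1 had 55 counts over the knockout and 38 over the control libraries, with an SE of 1.02.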
